A study of Mus musculus with 6 samples.

Results

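A set of 9 mature miRNAs known from blood cells was followed in small RNA libraries of mouse pancreatic islets: 6 from white cells and 3 from red cells. They were taken by name from the deposited count table, in which all 9 were found among 1011 rows. The libraries came from primary islets of mice on 2 diets, labelled HFD and NCD, with 3 libraries each. The labels give no genotype, strain, age, length of feeding or further treatment for either diet. They also do not say whether a library holds 1 animal or a pool, so the p-values below rest on the spread among these libraries, which may be technical.

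Blood cells carry a small set of miRNAs that most solid tissues hardly make, and their reads in a tissue library are often read as a sign of resident or trapped blood cells. White cells differ in which of these they hold: miR-142 is found across blood lineages, miR-223 mainly in neutrophils and other myeloid cells, miR-150 in mature lymphocytes and miR-155 in activated lymphocytes and macrophages. In red cells miR-451a and miR-144 are transcribed together under GATA1, and miR-451a is unusual in that Ago2 and not Dicer cuts its hairpin. In bulk samples fewer cells of a type and less RNA per cell cannot be told apart.

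The mature sequences are shown to identify what was counted, 5′ to 3′ from RefSeq (GRCm38.p6), with the seed, bases 2 to 8, in capitals. Of the 9 members 7 were matched by name, and each matched sequence was the same in the deposited table.
mmu-miR-142a-3p: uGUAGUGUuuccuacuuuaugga
mmu-miR-142a-5p: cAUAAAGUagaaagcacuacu
mmu-miR-223-3p: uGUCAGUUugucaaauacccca
mmu-miR-155-5p: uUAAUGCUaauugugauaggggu
mmu-miR-342-3p: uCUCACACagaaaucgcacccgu
mmu-miR-451a: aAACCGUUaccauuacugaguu
mmu-miR-144-3p: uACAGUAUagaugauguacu
No seed was shared between these 7, and no other row with a mouse miRNA name carried any of them. The other members are mmu-miR-150-5p and mmu-miR-486a-5p, and the species prefix is left out below.

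The hairpins lie at these places in GRCm38. That of miR-142a is on chromosome 11 from 87756864 to 87756927 (plus strand), in an intron of the long non-coding RNA gene Mir142hg. That of miR-223 is on chromosome X from 96242817 to 96242926 (plus strand), over an exon of F630028O10Rik. The miR-155 hairpin is on chromosome 16 from 84714140 to 84714204 (plus strand), over an exon of Mir155hg, its host transcript. The miR-342 hairpin is on chromosome 12 from 108658620 to 108658718 (plus strand), in an intron of Evl, which encodes an actin regulator. The hairpins of miR-144 (78073005 to 78073070) and miR-451a (78073170 to 78073241) are neighbours on the plus strand of chromosome 11, with 99 bases between them. No other annotated gene was found over either hairpin, where miRNA genes of the same number were not looked for.

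Library totals ran from 7166712 to 11172255 counts. Levels are given as CPM, counts per 1000000 of a library total that was scaled by its TMM factor. NCD 3 stood apart with a TMM factor of 1.73, against 0.840 to 0.995 in the other libraries, and a count of 0 allowed up to 0.213 to 0.445 CPM (3 counts, counting error only). As for the tissue, the 3 islet endocrine miRNAs miR-375-3p, miR-7a-5p and miR-184-3p took 43.3% to 56.3% of the reads.

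Blood cell miRNAs were a trace of each library. The 6 white cell members took 0.00181% to 0.0147% of the reads and the 3 red cell members 0.00345% to 0.0200%. By mean CPM over the 6 libraries the order was miR-451a (79.6), miR-342-3p (25.5), miR-486a-5p (11.3), miR-142a-5p (5.32), miR-155-5p (3.43), miR-150-5p (2.43), miR-223-3p (1.79), miR-142a-3p (1.45) and miR-144-3p (0.453). miR-451a lay above miR-342-3p in 6 of 6 libraries. Each of the next 2 lay above its follower in 5 of 6, while from miR-142a-5p down to miR-142a-3p each lay above the next in only 3 or 4 of 6, so that these neighbours did not differ beyond their spread. Library preparation by ligation favours some ends over others, so an order between miRNAs is less certain than a comparison of 1 miRNA between libraries.

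**Figure D1:**
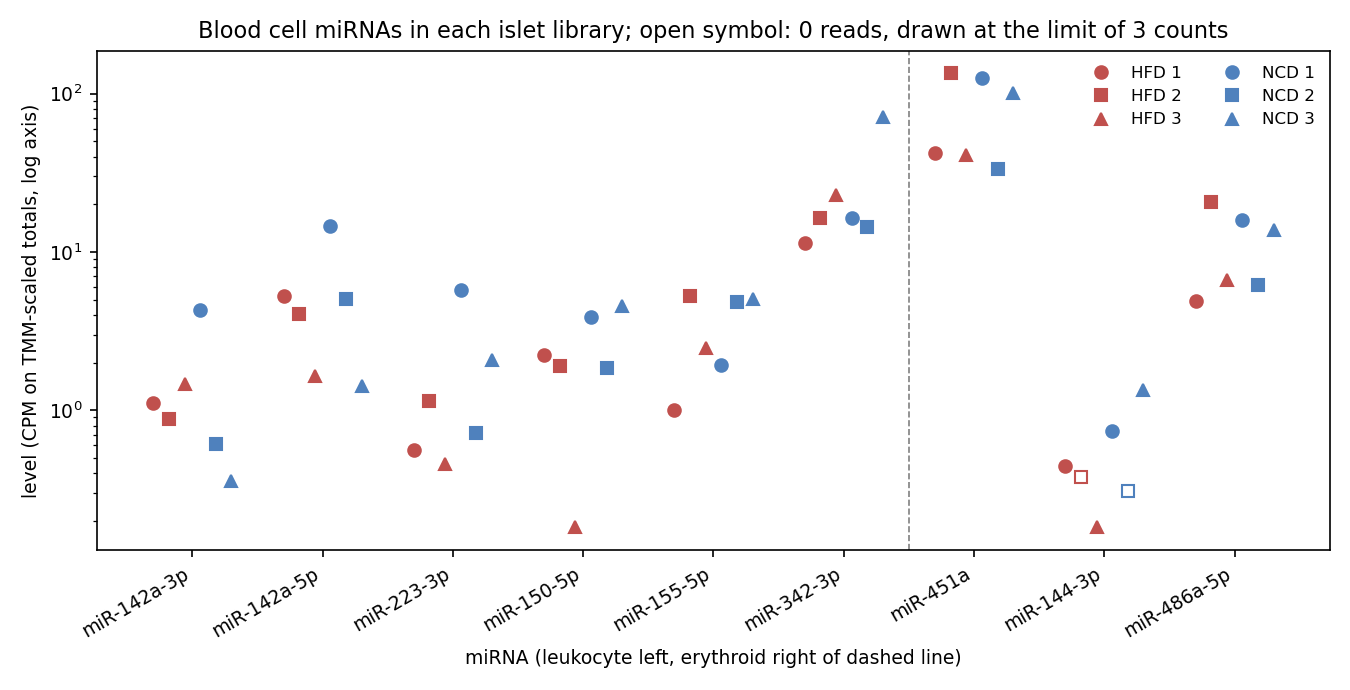
Level of each of the 9 blood cell miRNAs in each library, in CPM on a log axis, with HFD libraries in red and NCD libraries in blue; symbols mark the replicate, and an open symbol marks 0 reads, drawn at the limit of 3 counts. The diets overlap for every member, miR-451a and miR-486a-5p split within both diets, and miR-342-3p is highest in NCD 3 at 71.5 CPM.

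The comparison between diets found no blood cell miRNA that passed. Of the 9 members, 6 passed the filter on low counts. Of these 0 had an adjusted p under 0.05 in the edgeR quasi-likelihood test or in DESeq2, and 0 had an unadjusted edgeR p under 0.05. Over all 406 tested miRNAs edgeR called 1, or 0.246%, and 41, or 10.1%, had an unadjusted edgeR p under 0.05. DESeq2 called 3 of the 404 to which it gave an adjusted p, or 0.743%. Without the filter, 3 of 9 members had an unadjusted p under 0.05, namely miR-223-3p (0.00592), miR-342-3p (0.00943) and miR-150-5p (0.0220), against 8.51% of all 1011 rows, and none passed after edgeR's adjustment. With library totals as the scaling, 1 of 6 did, miR-150-5p (0.0449), against 11.1% of the tested miRNAs. The diets overlapped for 6 of 6 tested members, where 15.3% of all tested miRNAs did not overlap. Each of the 6 had a negative fold change, HFD against NCD, as did 48.5% of all tested miRNAs. The intervals below are wide, so these data do not show that the levels were alike.

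**Figure D2:**
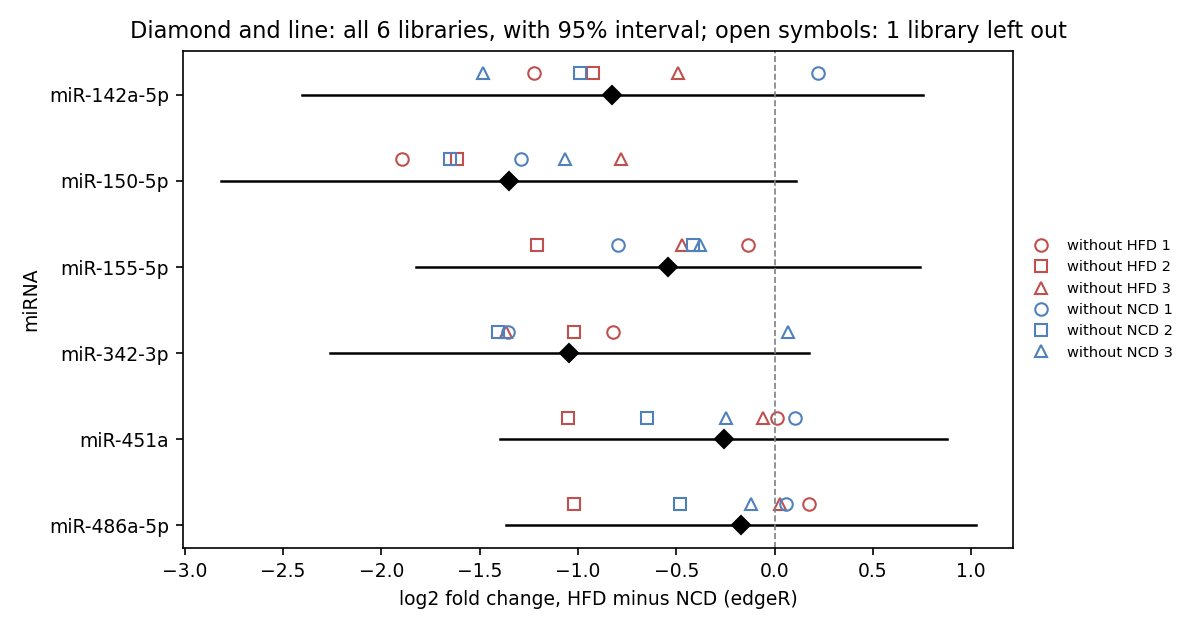
log2 fold change, HFD minus NCD, of the 6 tested members from edgeR: the diamond is the value over all 6 libraries with its 95% interval, and open symbols are the values with 1 library left out. Each interval crosses 0, and only miR-150-5p and miR-155-5p stay below 0 whichever library is left out.

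Among the white cell members, miR-142a-5p comes from the hairpin found across white cell types. It had 5.23, 4.04 and 1.64 CPM in HFD 1, 2 and 3, and 14.5, 5.02 and 1.42 CPM in NCD 1, 2 and 3. NCD 1 was the highest, and the diets overlapped. Which library was lowest depended on the scaling: NCD 3 with TMM factors, and HFD 3 on plain library totals (1.63 CPM, against 2.46 CPM in NCD 3). The means were 3.64 ± 1.83 and 6.99 ± 6.78 CPM (SD, n = 3 each), and the edgeR log2 fold change was -0.82 ± 0.73 (SE, 95% interval -2.41 to 0.76, adjusted p = 0.658). Without NCD 1 it was 0.22.

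Its 3p partner miR-142a-3p, usually named among the abundant miRNAs of white cells, had too few reads for the test. It had 10, 7 and 16 reads in the HFD and 29, 6 and 5 in the NCD libraries. That is 1.11, 0.884 and 1.45 CPM against 4.30, 0.615 and 0.356 CPM, with NCD 1 again the highest. NCD 3 was the lowest with TMM factors and NCD 2 on plain library totals. Without the filter its log2 fold change was -0.35 ± 0.71 (SE, edgeR adjusted p = 0.858). The row of miR-142b, from the opposite strand of the same locus, held the same 73 reads, and its sequence is complementary to miR-142a-3p over 20 bases, so the 2 rows are not separate measurements.

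The balance of the miR-142a arms was tested within libraries, where no scaling enters. Of the miR-142a reads, 82.5%, 82.1% and 52.9% lay on the 5p arm in HFD 1, 2 and 3, as did 77.2%, 89.1% and 80.0% in NCD 1, 2 and 3. HFD 3 was the lowest, with an exact Clopper-Pearson 95% interval of 35.1% to 70.2% from 34 reads, against 70.1% to 91.3% in HFD 1 from 57 reads. The 5p arm was the larger in 6 of 6 libraries. On the log2 scale, with 0.5 added to each count, the 5p to 3p ratio averaged 1.49 ± 1.14 over HFD and 2.19 ± 0.65 over NCD libraries (SD, n = 3 each), a difference of -0.70 (exact permutation test, two-sided, p = 0.6, and 0.6 after Benjamini-Hochberg adjustment over the 2 ratios tested). With 3 libraries against 3 this test cannot go below 0.1. Without HFD 3 the difference was -0.042.

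**Figure D3:**
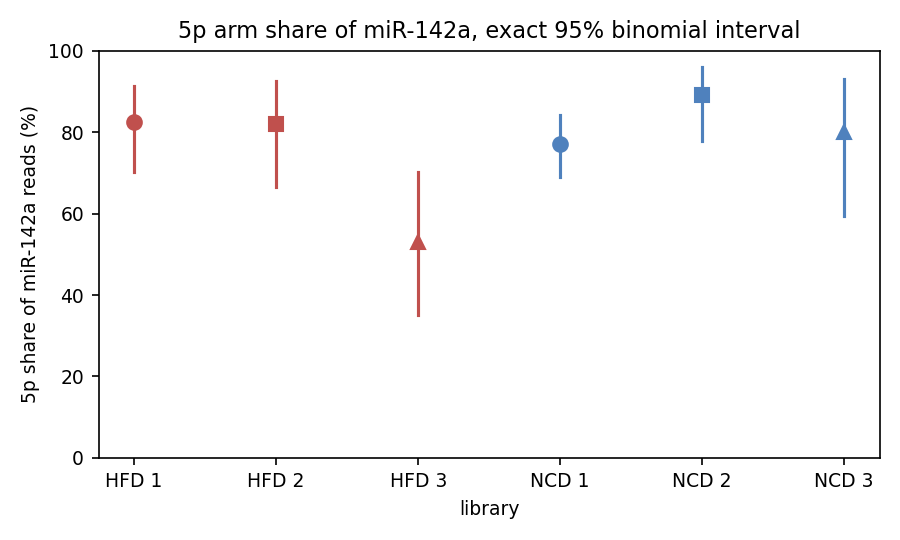
Share of miR-142a reads on the 5p arm in each library, in percent, with exact 95% binomial intervals that cover counting error only. HFD 3 lies at 52.9% and the other libraries between 77.2% and 89.1%.

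The myeloid member miR-223-3p, which restrains neutrophil activation, also had too few reads for the test, with 5, 9 and 5 reads in the HFD and 39, 7 and 29 in the NCD libraries. Its levels were 0.557, 1.14 and 0.455 CPM against 5.79, 0.717 and 2.06 CPM. NCD 1 and NCD 3 lay above the HFD libraries, and NCD 2 lay among them. Without the filter the log2 fold change was -1.97 ± 0.72 (SE, 95% interval -3.38 to -0.57), with an edgeR adjusted p of 0.241. Dropping the filter also lowered the SE of each tested member, for miR-342-3p from 0.57 to 0.42. It raised the calls over all miRNAs from 1 to 8, so intervals from this setting are narrower than those given for the tested members. The other arm, miR-223-5p, had 2.12, 1.14 and 0.273 CPM in the HFD and 0.890, 0.922 and 0.356 CPM in the NCD libraries, and did not share this order: HFD 1 was highest. It had 51 reads in all.

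Of the lymphoid members, miR-150-5p, a repressor of Myb in mature B and T cells, had 2.23, 1.89 and 0.182 CPM in the HFD and 3.86, 1.84 and 4.55 CPM in the NCD libraries. HFD 3 was lowest, on 2 reads, and NCD 2 lay below HFD 1. The log2 fold change of -1.35 ± 0.68 (SE, 95% interval -2.82 to 0.11) had the smallest edgeR p among the 6 members that passed the filter, 0.0669 unadjusted and 0.505 adjusted. In DESeq2 the unadjusted p of miR-342-3p (0.0676) was smaller than that of miR-150-5p (0.0839). It was -0.78 without HFD 3.

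miR-155-5p, which rises when lymphocytes and macrophages are activated, had 1.002, 5.30 and 2.46 CPM in the HFD and 1.93, 4.82 and 5.05 CPM in the NCD libraries. HFD 1 was the lowest, and the diets overlapped. HFD 2 was the highest with TMM factors and NCD 3 on plain library totals (8.74 CPM, against 4.45 CPM in HFD 2). The log2 fold change was -0.54 ± 0.59 (SE, 95% interval -1.82 to 0.74, edgeR adjusted p = 0.718), and it was -0.13 without HFD 1 and -1.21 without HFD 2. Its passenger arm miR-155-3p had 2 reads in HFD 3 and 0 elsewhere.

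miR-342-3p, the most abundant white cell member, is processed from the Evl intron. It had 11.4, 16.4 and 22.7 CPM in the HFD and 16.5, 14.5 and 71.5 CPM in the NCD libraries. NCD 3 was far above all others, and NCD 1 and NCD 2 lay within the HFD range. The means were 16.8 ± 5.70 and 34.1 ± 32.3 CPM (SD, n = 3 each), and the log2 fold change was -1.04 ± 0.57 (SE, 95% interval -2.26 to 0.17, edgeR adjusted p = 0.536). Without NCD 3 it was 0.070.

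The 5p arm of the same hairpin, miR-342-5p, had 3.56, 1.64 and 4.09 CPM in the HFD and 5.93, 4.61 and 7.61 CPM in the NCD libraries. With TMM factors each NCD library lay above each HFD library, as in 4.93% of all tested miRNAs. On plain library totals NCD 2, at 4.03 CPM, lay below HFD 3, at 4.07 CPM. The miRNA did not pass (log2 fold change -0.95 ± 0.49, SE, edgeR adjusted p = 0.505).

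Summed over the 6 white cell members, the level was 21.5, 29.7 and 28.9 CPM in the HFD and 46.9, 27.5 and 84.9 CPM in the NCD libraries. NCD 1 and NCD 3 were the high libraries, and their composition differed: miR-342-3p made up 84.2% of the sum in NCD 3 and 35.1% in NCD 1. The other 5 members together had 10.1, 13.3 and 6.18 CPM in the HFD and 30.4, 13.0 and 13.4 CPM in the NCD libraries, so that without miR-342-3p NCD 1 alone stood out. The mean log2 difference of the full sum was -0.86, against a pooled SD of 0.60 between libraries of 1 diet, and -0.44 without NCD 3. The 4 tested members had a median log2 fold change of -0.93, against 0.015 over all tested miRNAs.

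**Figure D4:**
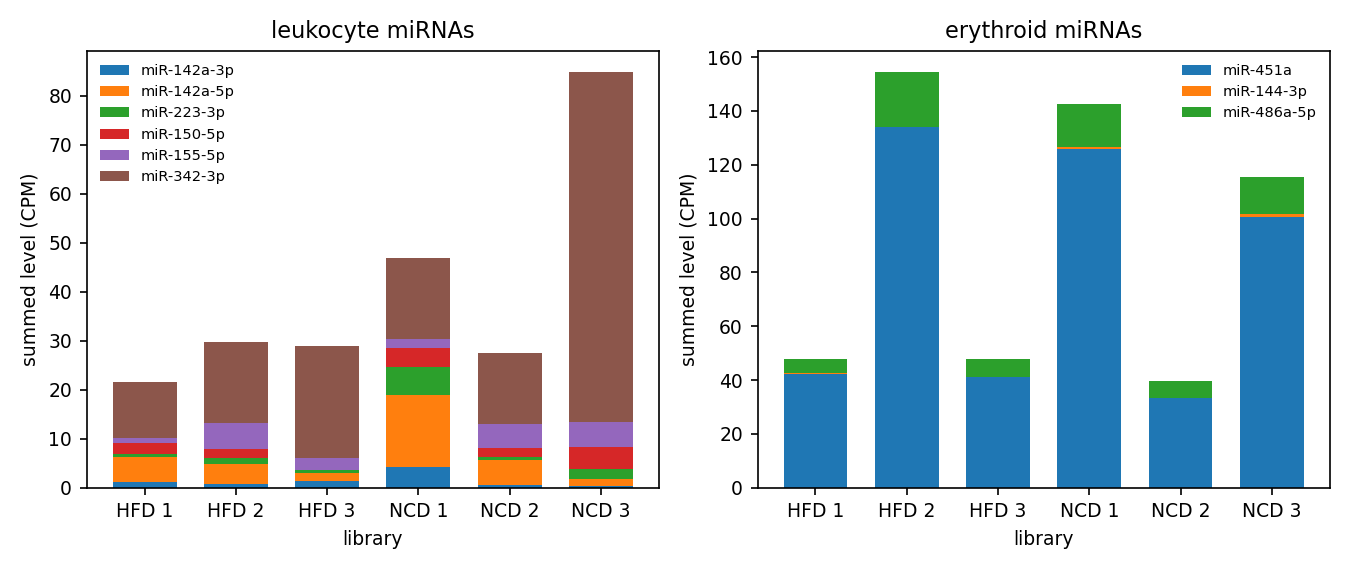
Summed level of the white cell (left) and red cell (right) members in each library, in CPM, with 1 colour per miRNA. NCD 3 reaches 84.9 CPM on the left, mostly miR-342-3p, and HFD 2, NCD 1 and NCD 3 are the 3 high libraries on the right.

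The white cell members did not share 1 pattern. Likeness was measured as the root mean square difference of log2 CPM over the 6 libraries after each miRNA was centred on its own mean, with a prior count of 2, where 0 is an identical pattern. Among the 4 tested white cell members the smallest value was 0.84, between miR-155-5p and miR-342-3p, and the largest was 1.76, between miR-142a-5p and miR-342-3p. Counting noise weighs more at low counts. miR-150-5p had 2 to 64 reads per library and miR-155-5p 9 to 71, against 326 to 1414 for miR-451a. The part of counting noise in these distances was not tested. Outside the blood cell miRNAs and their partner rows, the 3 patterns closest to miR-342-3p among 234 miRNAs of at least 10 CPM were those of miR-129-1-3p (0.19), miR-129-2-3p (0.24) and miR-129b-5p (0.29). The median over these 234 was 0.98. miR-129-1-3p, of a family known from neural and endocrine cells, had 452, 804 and 952 CPM in the HFD and 790, 495 and 2569 CPM in the NCD libraries, with the same library on top. The part of cells other than white cells in the miR-342-3p values, and so in the white cell sum, was not tested. The miR-129b-5p sequence is complementary to miR-129-1-3p over 19 bases and to miR-129-2-3p over 20 bases, so these rows may share reads. By contrast, miR-342-5p, from the same hairpin as miR-342-3p, was at 0.73, and 76 of the 405 other tested rows, itself included, were as close or closer.

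Among the red cell members, miR-451a was the most abundant blood cell miRNA of all 9. It had 42.3, 134 and 41.1 CPM in HFD 1, 2 and 3, and 126, 33.4 and 101 CPM in NCD 1, 2 and 3. Each diet held both low and high libraries: HFD 2, NCD 1 and NCD 3 had at least 101 CPM and the others at most 42.3 CPM. The means were 72.5 ± 53.3 and 86.6 ± 47.8 CPM (SD, n = 3 each), and the log2 fold change was -0.26 ± 0.53 (SE, 95% interval -1.40 to 0.88, edgeR adjusted p = 0.889). It was -1.05 without HFD 2, -0.65 without NCD 2 and 0.10 without NCD 1.

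miR-486a-5p, known from red cell precursors and from muscle, had 4.90, 20.6 and 6.64 CPM in the HFD and 15.9, 6.15 and 13.7 CPM in the NCD libraries. The same 3 libraries were high. The log2 fold change was -0.17 ± 0.55 (SE, 95% interval -1.36 to 1.02, edgeR adjusted p = 0.918), and it was -1.02 without HFD 2, -0.48 without NCD 2 and 0.17 without HFD 1. Since muscle is another source of this miRNA, the 3 muscle markers miR-206-3p, miR-1a-3p and miR-133a-3p were summed beside it. They came to 24.8, 62.1 and 14.2 CPM in HFD 1, 2 and 3 and to 128, 65.5 and 52.8 CPM in NCD 1, 2 and 3, with miR-133a-3p at 0 in HFD 3. HFD 2 was the highest HFD library and NCD 1 the highest NCD library in both this sum and miR-486a-5p, while NCD 2 was high in the muscle sum and low in miR-486a-5p. In NCD 1 miR-206-3p made up 59.3 CPM of the sum, against 1.002 to 11.2 CPM elsewhere. The part of muscle RNA in the miR-486a-5p values was not tested.

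The miR-486 rows repeat each other. miR-486a-5p, miR-486a-3p and miR-486b-3p held 639, 661 and 637 reads, and the 5p sequence is complementary to each of the 2 others over 20 bases. They are treated here as 1 measurement, and which arm or strand the reads came from cannot be told from these counts.

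Over the 6 libraries miR-451a and miR-486a-5p moved together. Their centred patterns differed by 0.23 (root mean square, log2), and of the 405 other tested rows only miR-486a-5p and its repeat miR-486b-3p were as close to miR-451a. The ratio of miR-451a to miR-486a-5p reads stayed between 5.43 and 8.64, while the level of miR-451a itself spanned 4.01-fold. This is a description over 6 libraries, and both miRNAs of a library share its depth and scaling. Next to miR-451a among the other miRNAs of at least 10 CPM came miR-881-3p (0.38), miR-744-5p (0.44) and miR-1981-5p (0.45), where the median over 234 was 0.96.

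**Figure D5:**
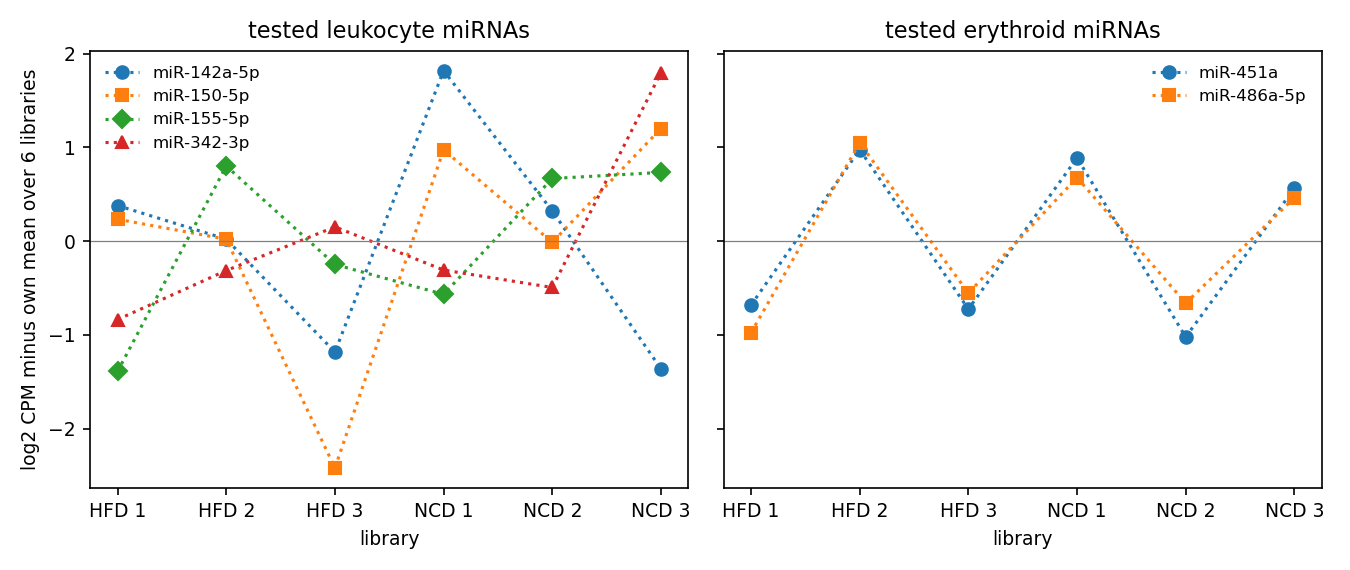
log2 CPM of each tested member minus its own mean over the 6 libraries, for white cell members (left) and red cell members (right); the dotted lines only join the points of 1 miRNA. The 2 red cell miRNAs rise and fall in the same libraries, while the white cell miRNAs peak in NCD 1 (miR-142a-5p), HFD 2 (miR-155-5p) or NCD 3 (miR-150-5p and miR-342-3p).

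miR-144-3p, cotranscribed with miR-451a, was near the limit of detection, with 4, 0 and 2 reads in the HFD and 5, 0 and 19 in the NCD libraries. NCD 3 was highest at 1.35 CPM, and the 0 counts in HFD 2 and NCD 2 allow up to 0.379 and 0.307 CPM. HFD 2, 1 of the 3 libraries high in miR-451a, was thus 1 of the 2 with no miR-144-3p read. The mean log2 ratio of miR-451a to miR-144-3p was 8.32 ± 2.43 in HFD and 7.60 ± 1.61 in NCD (SD, n = 3 each, 0.5 added to each count). The difference of 0.72 was smaller than this spread (exact permutation test, two-sided, p = 0.6, and 0.6 adjusted over the 2 ratios). It turned to -0.65 without HFD 2, and it was 0.28 (p = 0.9 in the exact permutation test) with 5 in place of 0.5 added to each count. The 5p arm miR-144-5p, also too low for the test, had 1, 0 and 0 reads in the HFD and 4, 2 and 14 in the NCD libraries. By these counts each NCD library lay above each HFD library, as in 4.93% of all tested miRNAs. The 0 counts in HFD 2 and HFD 3 allow up to 0.379 and 0.273 CPM, above the 0.205 CPM of NCD 2. These reads are thus too few to settle whether the diets separate. Without the filter the log2 fold change was -3.80 ± 1.62 for miR-144-5p and -1.83 ± 1.10 for miR-144-3p (SE, edgeR adjusted p = 0.382 and 0.669).

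Summed, the red cell members had 47.7, 155 and 47.9 CPM in the HFD and 143, 39.6 and 116 CPM in the NCD libraries, of which miR-451a made up 84.5% to 88.8%. The mean log2 difference was -0.29, against a pooled SD of 0.98 between libraries of 1 diet, and it was -0.86 without HFD 2 or without NCD 2. Without HFD 1, HFD 3 or NCD 3 it lay between -0.087 and -0.010, and without NCD 1 it was 0.064.

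The 3 libraries highest in the red cell sum, HFD 2, NCD 1 and NCD 3, were also the 3 highest in the white cell sum, although HFD 2, at 29.7 CPM, lay close to HFD 3, at 28.9 CPM. As a share of raw reads the white cell members took less in HFD 2 (0.00249%) than in HFD 3 (0.00288%). Single white cell members differed in which of these libraries they shared. With TMM factors NCD 1 was highest in both arms of miR-142a and in miR-223-3p, and second in miR-150-5p (3.86 CPM). HFD 2 was the highest HFD library in miR-155-5p and miR-223-3p. NCD 3 was highest in miR-150-5p and miR-342-3p, and second in miR-223-3p and miR-155-5p. For miR-155-5p NCD 2 lay close to NCD 3 (4.82 against 5.05 CPM). By pattern, miR-142a-5p lay at 1.199 from miR-451a and at 1.22 from miR-150-5p, its nearest tested white cell member. miR-150-5p lay at 1.004 from miR-451a. Both distances from miR-451a were above the median of 0.96 over the 234 miRNAs of at least 10 CPM. The means of miR-142a-5p and miR-150-5p, 5.32 and 2.43 CPM, were below that cut. Counting noise weighs more at low counts, so this median is not a matched reference for them. miR-155-5p lay at 0.79 from miR-486a-5p and at 0.84 from miR-342-3p. These values describe 6 libraries, and all miRNAs of a library share its depth and scaling.

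Markers of other tissues also differed between these libraries. In NCD 1 the liver miRNA miR-122-5p was at 757 CPM, against 34.1 to 78.6 CPM elsewhere, and the summed 3 muscle miRNAs were at 128 CPM, against 14.2 to 65.5 CPM. Of these 3, miR-206-3p set NCD 1 apart, at 59.3 CPM against 1.002 to 11.2 CPM elsewhere. miR-1a-3p was at 67.4 CPM in NCD 1 and 63.1 CPM in NCD 2. miR-133a-3p was at 1.04 CPM in NCD 1, below HFD 2, NCD 2 and NCD 3. In NCD 3 the summed 4 acinar miRNAs were highest, at 418 CPM, against 20.2 to 205 CPM in the HFD and 111 and 173 CPM in the other NCD libraries; miR-216a-5p and miR-216a-3p were at 0 in HFD 1. The 2 endothelial miRNAs summed to 300 to 434 CPM in HFD and 346 to 748 CPM in NCD, with NCD 1 highest, and the 4 stromal ones to 1325 to 4969 CPM in HFD and 1511 to 2972 CPM in NCD, with HFD 2 highest. The stromal sum was mostly miR-143-3p, at 4941 CPM in HFD 2. miR-214-3p was also highest in HFD 2 (1.89 CPM). By contrast, miR-199a-3p was highest in HFD 1 (24.9 CPM) and miR-145a-5p in NCD 3 (15.4 CPM, against 14.9 CPM in HFD 2). The part of these cells, or of NCD 3's scaling, in the blood cell values was not tested.

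Other miRNAs known from blood cells were taken as a list of 8, of which 6 were found and 5 tested. Of these 5, 1 passed: miR-146a-5p, which many cell types make once NF-kB is active, with a log2 fold change of 2.40 ± 0.35 (SE, edgeR adjusted p = 0.00369). It was the only call of edgeR among all 406 tested miRNAs (0.246%), and the list was chosen with earlier results of these data known. The levels of miR-146a-5p were 3692, 3004 and 5451 CPM in the HFD and 576, 952 and 773 CPM in the NCD libraries, well over those of any member. Its groups did not overlap, as was so for 15.3% of all tested miRNAs. Its call ended without NCD 1 (log2 fold change 2.23, edgeR adjusted p = 0.0817), when libraries were scaled by their totals alone (2.03, adjusted p = 0.188), and in limma-trend with a pseudocount of 1 or 0.1 TPM (2.04 and 2.05, adjusted p = 0.0874 and 0.0913). The other 4 had no call: miR-147-3p, known from macrophages, had a log2 fold change of -0.53 ± 0.81 (SE), miR-139-5p -0.48 ± 0.45, miR-181a-5p, known from thymocytes, -0.34 ± 0.35 and miR-363-3p 0.049 ± 0.61. miR-147-3p was highest in NCD 1, at 7.86 CPM, as were both arms of miR-142a and miR-223-3p. Without NCD 1 its log2 fold change was 0.46, and that of miR-139-5p was 0.11 without NCD 3, while that of miR-363-3p turned negative under RLE factors and library totals, among others.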

How the data were processed

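The deposited table holds raw read counts per mature miRNA and library and, per the file headers, TPM values by the authors, which equal CPM on the plain library total to within a relative difference of 4.61e-09. The aligner, the counter and the genome build were not stated: not given in the sources used here. Per the labels' protocols, total RNA came from RNeasy mini columns and libraries from a NEBNext small RNA kit. The counts were tested with edgeR 4.0.16 (R 4.3.3): filterByExpr with a minimum count of 10, TMM factors, and the quasi-likelihood fit (legacy = FALSE) with diet as the only term, over 406 miRNAs with Benjamini-Hochberg adjustment and a threshold of 0.05. Shares are of raw totals. DESeq2 1.42.0, limma 3.58.1, other scalings and filters and left-out libraries were alternatives. Libraries of 1 diet differed beyond counting noise, so none was a repeat deposit. The fit across miRNAs was tested on simulated counts. The members, lists and tests were chosen with earlier results of these data known. All members were named, with partner rows, a list of other blood cell miRNAs and the 3 nearest patterns. Rows miR-150-3p, miR-451b, miR-486b-5p, miR-511-3p and miR-511-5p were not analysed here.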

Additional observations from a re-analysis of the deposited data

How the results depend on the processing

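No blood cell member was called under any of 20 alternatives in which it was tested: 6 were tested under most, all 9 once the filter was dropped and 3 under the stricter one (mean count of 100). The count over all miRNAs, 1 at first, was 0 with library totals only and in limma-trend at either pseudocount (1 or 0.1 TPM), 3 with DESeq2 and 8 without a filter, and ran from 0 to 4 with 1 library left out. Of these alternatives, keeping 1 row per reverse-complementary pair and the legacy quasi-likelihood fit were chosen after the data were seen, and each gave 1. Over all miRNAs the median log2 fold change, 0.015 at first, was -0.37 with library totals, and the members then lay between -0.63 (miR-486a-5p) and -1.80 (miR-150-5p).

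With 1 library left out, log2 fold changes ran from -1.48 to 0.22 for miR-142a-5p, -1.41 to 0.070 for miR-342-3p, -1.05 to 0.10 for miR-451a, -1.02 to 0.17 for miR-486a-5p, -0.97 to 0.17 for miR-486a-3p, -1.01 to 0.18 for miR-486b-3p, -1.37 to 0.46 for miR-147-3p, -0.75 to 0.11 for miR-139-5p and -0.25 to 0.69 for miR-363-3p. Those of miR-150-5p, from -1.89 to -0.78, and miR-155-5p, from -1.21 to -0.13, stayed negative. miR-363-3p also reversed with RLE factors (-0.035), library totals (-0.37), limma-trend (-0.12 and -0.10) and without the most abundant miRNA (-0.021). The log2 ratio difference of miR-451a to miR-144-3p ran from -0.65 to 1.68, and that of the miR-142a arms from -1.05 to -0.042. Summed levels differed by -1.26 to -0.44 for white and -0.86 to 0.064 for red cell members. For these shifts the cause was not tested.

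Deviations from the diet means correlated between same-numbered libraries at 0.17, -0.24 and 0.35, not each above 0.1, and HFD 1 and HFD 2 correlated best with another number, so no pairing by number was assumed. With the replicate number as a block the count over all miRNAs was 1 and that of members 0, with log2 fold changes of -0.74 for miR-142a-5p, -1.41 for miR-150-5p, -0.52 for miR-155-5p, -0.75 for miR-342-3p, -0.38 for miR-451a and -0.29 for miR-486a-5p. Within numbers the ratio differences were -0.70 for the miR-142a arms and 0.72 for miR-451a to miR-144-3p. Depth limits miR-142a-3p, miR-223-3p and miR-144-3p, which had 73, 94 and 30 reads in all.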
